A study of Mus musculus with 4 samples.

Results

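The translation initiation factor genes were described in mouse group 3 innate lymphoid cells (ILC3s) after TL1A stimulation. Members were taken by name alone: every gene symbol of the count table that starts with Eif1, Eif2, Eif3, Eif4, Eif5 or Eif6, without the eIF2 kinases, whose symbols start with Eif2ak. This gave 52 genes, covered by 85 transcript rows, of 24343 genes in the table. ILC3s are lymphocytes without rearranged antigen receptors that live at mucosal surfaces and secrete IL-22, and TL1A is a TNF superfamily cytokine whose receptor is DR3. There were 2 RNA-seq libraries of cells treated with TL1A and 2 of cells kept in medium. All 4 came from lineage-negative, CD127-positive, GFP-positive cells sorted from mice of genotype IL23R-GFP/WT, which carry a green fluorescent reporter at the IL-23 receptor locus in heterozygous form. The medium libraries are those whose titles carry no TL1A mark. The labels give no dose, duration, animal age or number of pooled animals. They are also silent on whether replicate libraries stem from different animals or cultures. The p-values therefore cover the spread of these 4 libraries alone, and that spread may be technical.

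Initiation factors place the small ribosomal subunit on an mRNA, move it to the start codon and join the large subunit to it. eIF2 brings the initiator tRNA as a complex with GTP and is recharged by eIF2B, eIF3 is the large scaffold on the small subunit, and eIF4F binds the cap and unwinds the leader through the helicase eIF4A. Activated lymphocytes are known to raise protein synthesis, and the eIF2 kinases and TOR complex 1 are its main regulators at the initiation step.

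The libraries held 11849977 and 12605164 assigned reads with TL1A and 11495636 and 12222552 in medium. Reads without a feature were 30.6% and 28.8% of assigned, ambiguous and featureless reads with TL1A and 35.0% and 32.3% in medium. Of the ILC3 list, 15 of 16 genes were tested, of which 6 rose (40%) and 7 fell (46.7%). Over all tested genes these shares were 20.6% and 21.7%. Il23r was at 663 and 632 CPM (counts scaled to library size) with TL1A and 1007 and 996 CPM in medium, and Il7r, which encodes CD127, at 1209 and 1191 CPM with TL1A and 3552 and 3661 CPM in medium. Thy1 went the other way, with 695 and 724 CPM with TL1A and 135 and 158 CPM in medium, and Kit had 0 and 0 reads with TL1A and 0 and 1 in medium. Of markers of other cells, the ILC1 and NK list summed to 469 and 443 CPM with TL1A and 29.5 and 25.9 CPM in medium, mostly Ncr1, with Eomes at 0. Of its 6 tested genes 2 rose and 2 fell. Those that fell were Gzma, with 1.21 and 1.12 CPM with TL1A and 5.73 and 5.99 CPM in medium, and Klrk1. The B cell list summed to 114 and 97.8 CPM with TL1A and 36.5 and 47.8 CPM in medium, with Ms4a1, Pax5 and Ebf1 at 0. The ILC2 list summed to 164 and 150 CPM with TL1A and 64.3 and 74.4 CPM in medium, mostly Klrg1, and of its 6 tested genes 1 rose and 2 fell. Il1rl1, one of its defining markers, had 4.09 and 1.03 CPM with TL1A and 13.9 and 12.4 CPM in medium. The myeloid list summed to 746 and 731 CPM with TL1A and 1649 and 1823 CPM in medium, mostly Fcer1g, with Itgam and S100a9 at 0. The T cell list summed to 107 and 122 CPM with TL1A and 143 and 127 CPM in medium, with Cd8a at 0. Of the 5 tested T cell genes, 1 fell and 4 did not pass. The sums of the other lists moved with the condition. The part of these lists in the results below was not tested. In bulk RNA, fewer cells of a type and less RNA per cell cannot be told apart. A marker counted at 0 is not thereby shown to be silent, because reads that fit several rows were set aside.

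More of the initiation factor genes were called higher than lower after TL1A, by modest amounts, when libraries were scaled for composition (TMM factors), though not when they were scaled by assigned reads alone. Of the 52 genes, 43 had enough reads for the test. With TL1A, 16 of the 43 rose (37.2%), against 20.6% of all 9852 genes tested, and 4 fell (9.3%), against 21.7% of all. The test was the quasi-likelihood test of edgeR with Benjamini-Hochberg adjustment over all genes tested, called at an adjusted p under 0.05. In either direction 20 of 43 were called (46.5%), against 42.3% of all genes, so the members differed from the background in direction more than in how often they were called, and that difference was not tested. Scaling by assigned reads alone moved the median log2 fold change of all genes to -0.29 and gave 11 members higher and 12 lower, against 1310 genes higher and 3475 lower over all. All other values below use TMM factors unless stated. With these, the median log2 fold change was 0.17 over the 43 members and -0.03 over all tested genes. The median size, regardless of sign, was 0.35 over the members and 0.44 over all genes. Only Eif6, Eif4ebp1 and Eif5a2 were called and changed at least 2-fold, 3 of 43 members against 19.4% of all genes. The other 14 of the 16 genes that rose did so by between 1.2- and 2-fold.

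**Figure D1:**
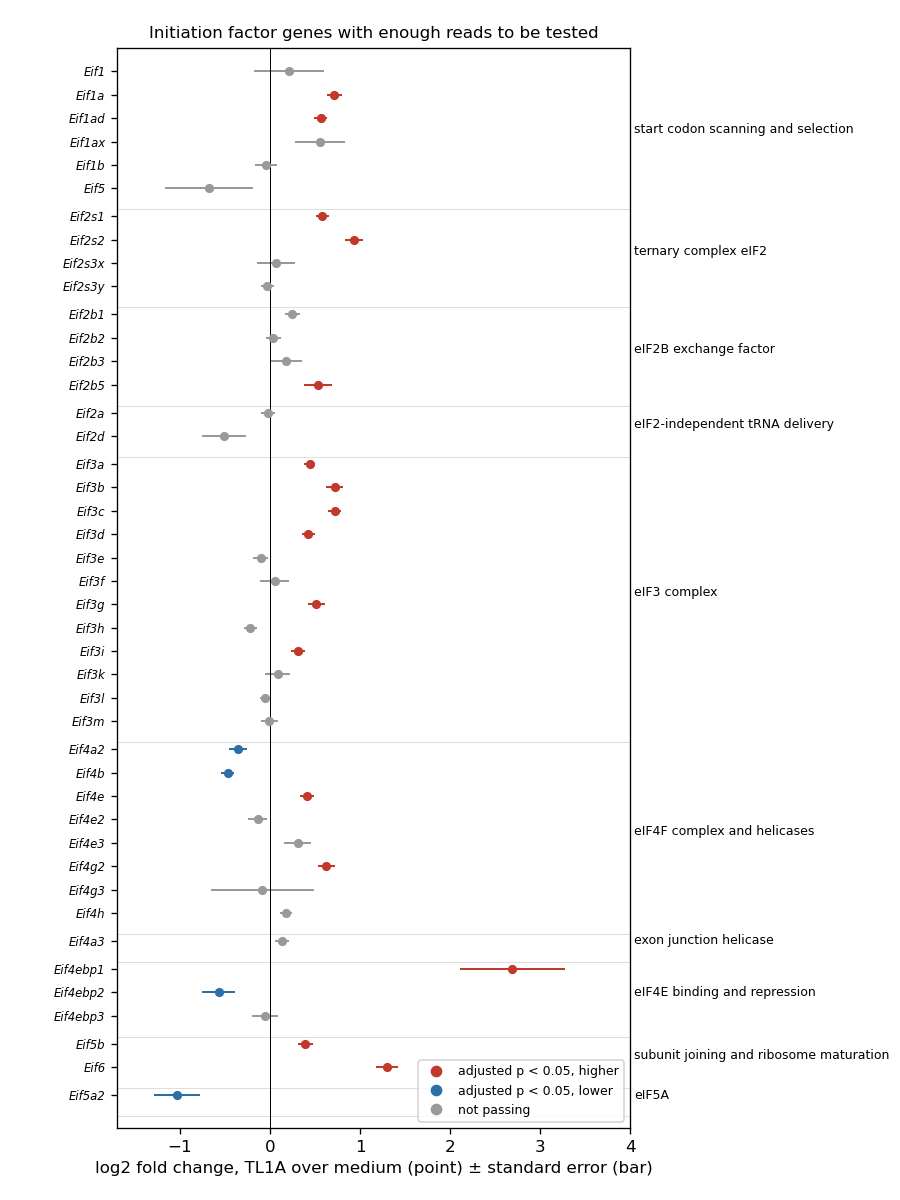
Log2 fold change (TL1A over medium, horizontal axis) of the 43 tested initiation factor genes, grouped by role down the page, with bars of 1 standard error from the edgeR fit and colours for higher, lower and not passing. The 16 genes that rose lie in most role groups, and the eIF3 group holds 6 of them and none that fell. Eif4ebp1 at 2.69 carries the widest bar among the genes called (all with TMM scaling). With assigned reads alone, eIF3 had 4 higher and 4 lower of 12 tested. Over all tested genes that scaling gave 13.3% higher and 35.3% lower.

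The summed level of all 52 genes was 10481 and 10362 CPM with TL1A and 8547 and 8803 CPM in medium. The libraries of the conditions did not overlap in this TMM-scaled sum. In CPM by assigned reads alone the sum was 9509 and 9534 with TL1A and 9337 and 9616 in medium, which overlapped. All 20 called genes had libraries that did not overlap between conditions, and over all tested members 32 of 43 were free of overlap (74.4%), against 72.2% of all genes. The 23 genes that did not pass had log2 fold changes between -0.68 and 0.55. Of these 23, 3 had an unadjusted p under 0.05, namely Eif2b1, Eif3h and Eif4h.

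**Figure D2:**
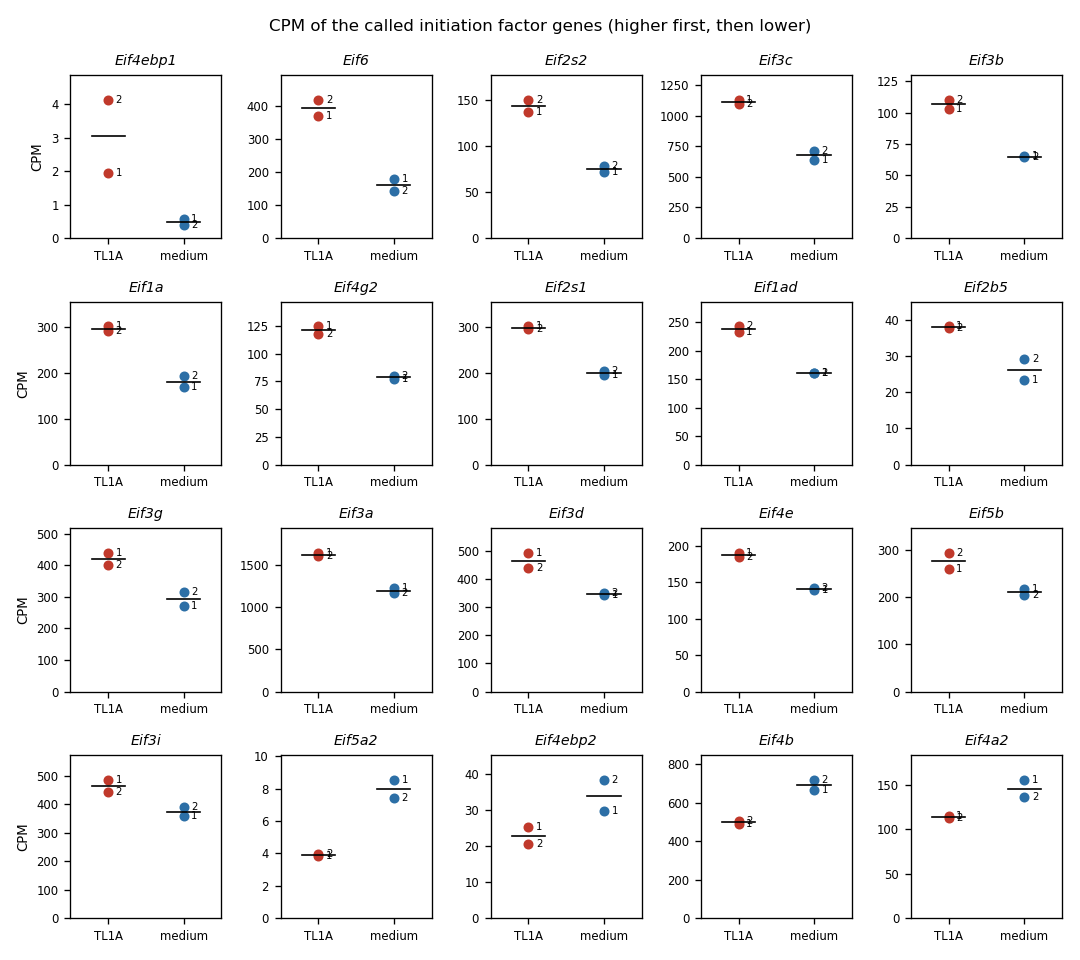
Level in each library (CPM) of the 20 initiation factor genes called by edgeR, 1 panel per gene, with the TL1A libraries left of the medium libraries, bars for the mean of 2 libraries and the library number beside each point. In every panel the points of one condition lie wholly above those of the other.

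The 2 factors that act on the large ribosomal subunit both rose, though with assigned reads alone only Eif6 did. Eif6 encodes a factor that binds the free large subunit, is needed for its maturation and keeps it from joining too early. Its level was 368 and 418 CPM with TL1A and 177 and 142 CPM in medium. The TL1A libraries lay far above the medium libraries, a log2 fold change of 1.30 (SE 0.12), or 2.46-fold, with an edgeR adjusted p of 0.000126, the smallest among the members. Eif5b, the GTPase that joins the subunits at the start codon, was at 260.4 and 293 CPM with TL1A and 217 and 205 CPM in medium. This was a smaller rise without overlap, with a log2 fold change of 0.39 (SE 0.09) and an edgeR adjusted p of 0.00875. Without TL1A replicate 2 the Eif5b call was lost at an edgeR adjusted p of 0.066.

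For the complex that carries the initiator tRNA, the alpha and beta subunits of eIF2 rose, while both copies of the gamma subunit gave no call (with assigned reads alone, Eif2s3y was called lower). Eif2s2, the beta subunit, had 136 and 149.9 CPM with TL1A and 71.9 and 78.3 CPM in medium. It nearly doubled, at 1.90-fold, with a log2 fold change of 0.93 (SE 0.10) and an edgeR adjusted p of 0.000304. Of the 50-base stretches of the Eif2s2 transcript, 72.2% occur in no other gene. Eif2s1, the alpha subunit, is the protein that the eIF2 kinases phosphorylate. It had 300.2 and 295 CPM with TL1A and 194 and 204 CPM in medium. The libraries did not overlap, and the log2 fold change was 0.58 (SE 0.07) with an edgeR adjusted p of 0.00062. The gamma subunit binds GTP and is encoded on both sex chromosomes in mice. Eif2s3y, on the Y chromosome, had 275 and 272 CPM with TL1A and 275 and 283 CPM in medium, a log2 fold change of -0.03 (SE 0.07). Eif2s3x, on the X chromosome, had 9.58 and 11.4 CPM with TL1A and 10.4 and 9.59 CPM in medium, a log2 fold change of 0.07 (SE 0.21). The conditions overlapped for Eif2s3x and lay within 11 CPM of each other for Eif2s3y. The levels of the 2 genes are not directly comparable. Of the 50-base stretches of the Eif2s3x transcript, 63.8% occur in no other transcript, whereas the share for Eif2s3y was 100%. Per kilobase of transcript, Eif2s3x had 2.87 CPM with TL1A and 2.74 in medium, and Eif2s3y had 149 with TL1A and 152 in medium. How much the shared stretches contribute to this gap was not tested.

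eIF2B swaps GDP for GTP on eIF2 and has 5 subunits. Of the 4 tested, Eif2b5, the catalytic epsilon subunit, rose, though not with assigned reads alone, with 38.1 and 37.6 CPM with TL1A and 23.3 and 29.1 CPM in medium. The gap between the conditions exceeded the gap between the medium libraries, and the log2 fold change was 0.53 (SE 0.16) with an edgeR adjusted p of 0.0281. Leaving out 1 library ended the Eif2b5 call in 3 of 4 cases, with edgeR adjusted p of 0.129 (medium replicate 1 left out), 0.0778 (TL1A replicate 1) and 0.0677 (TL1A replicate 2). Eif2b1, the alpha subunit, had 130.0 and 127 CPM with TL1A and 111 and 106 CPM in medium and did not pass, with an edgeR adjusted p of 0.0529. It was called higher with DESeq2's size factors in edgeR (adjusted p of 0.0409). Eif2b2 and Eif2b3 had log2 fold changes of 0.04 and 0.18 and did not pass. Eif2a and Eif2d, which can deliver initiator tRNA without eIF2, had log2 fold changes of -0.03 and -0.51 and did not pass either, but both were called lower with assigned reads alone.

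Among the factors that scan for the start codon, Eif1a rose under both scalings, and Eif1ax, Eif1, Eif1b and Eif5 did not pass. Eif1ad, placed in this group by its name and not by a known part in scanning, also rose under both scalings. Eif1a encodes eIF1A, which holds the scanning ribosome open. It had 300.4 and 291 CPM with TL1A and 168 and 192 CPM in medium. The conditions were well apart, with a log2 fold change of 0.72 (SE 0.09) and an edgeR adjusted p of 0.000516. Eif1ad, which encodes a protein with an eIF1A-like domain, had 232 and 242 CPM with TL1A and 159.9 and 161 CPM in medium. Here the libraries of a condition nearly coincided, and the log2 fold change was 0.56 (SE 0.08) with an edgeR adjusted p of 0.000855. Eif1ax, the X-linked gene for eIF1A, had 109 and 167 CPM with TL1A and 120.1 and 68.0 CPM in medium. Eif1, which guards against initiation at wrong codons, had 43.2 and 80.4 CPM with TL1A and 73.7 and 33.3 CPM in medium. Both genes overlapped between conditions, and libraries of one condition differed by more than the condition means did. Their log2 fold changes were 0.55 (SE 0.28) for Eif1ax and 0.21 (SE 0.39) for Eif1, with edgeR adjusted p of 0.153 and 0.695. Without medium replicate 1, Eif1ax was called, with a log2 fold change of 1.02 and an edgeR adjusted p of 0.00776, and without TL1A replicate 1 it was called at 0.0273. Eif1b, a close relative of Eif1, had 58.9 and 51.6 CPM with TL1A and 55.6 and 58.7 CPM in medium, which overlapped, with a log2 fold change of -0.05 (SE 0.12). Eif5, the GTPase activator of eIF2, was counted at 1.12 and 1.03 CPM with TL1A and 1.27 and 2.17 CPM in medium. Its 2 transcript rows share every 50-base stretch with each other, so its level is not a measure of the gene's expression.

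**Figure D3:**
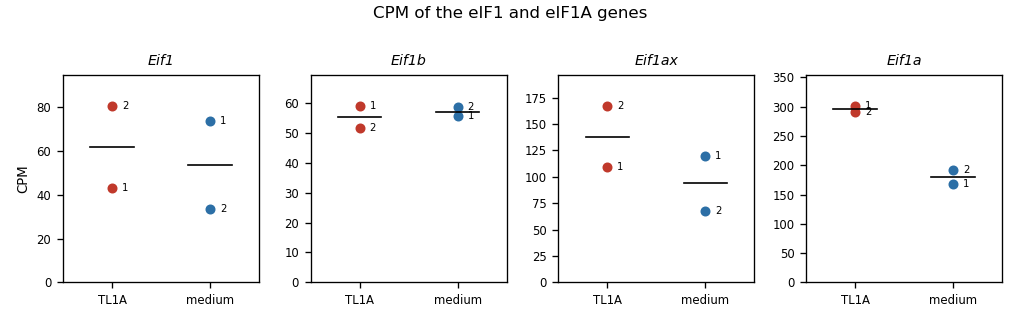
Level in each library (CPM) of Eif1, Eif1b, Eif1ax and Eif1a, with TL1A libraries left of medium libraries, bars for the mean of 2 libraries and the library number beside each point. Eif1a separates by condition, Eif1b stays between 51.6 and 58.9 CPM, and in Eif1 and Eif1ax TL1A replicate 2 and medium replicate 1 are the high libraries.

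eIF3, the scaffold of the small subunit, held 12 of the 43 tested genes, of which 6 rose (50%), 0 fell and 6 did not pass. Of all tested genes, 20.6% rose and 21.7% fell. With assigned reads alone, 4 of the 12 were higher (Eif3a, Eif3b, Eif3c and Eif3g) and 4 lower (Eif3e, Eif3h, Eif3l and Eif3m). Over all tested genes that scaling gave 13.3% higher and 35.3% lower. The 14 eIF3 genes summed to 6217 and 5940 CPM with TL1A and 4836 and 5111 CPM in medium. Eif3c rose most among the abundant subunits, with 1131 and 1093 CPM with TL1A and 639.6 and 712 CPM in medium. That was 1.65-fold, with a log2 fold change of 0.72 (SE 0.07) and an edgeR adjusted p of 0.000208. Eif3b, which with Eif3a forms the base of the complex, had 103 and 110.3 CPM with TL1A and 65.4 and 64.5 CPM in medium. Its log2 fold change matched that of Eif3c at 0.72 (SE 0.10), with an edgeR adjusted p of 0.000998. Eif3a, the largest subunit, had 1640.0 and 1606 CPM with TL1A and 1223 and 1168 CPM in medium. The libraries of each condition lay close together, and the log2 fold change was 0.44 (SE 0.06) with an edgeR adjusted p of 0.000886.

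Eif3g and Eif3i, subunits attached through Eif3b, rose as well. Eif3g had 438 and 402 CPM with TL1A and 273 and 315 CPM in medium, a log2 fold change of 0.52 (SE 0.09) with an edgeR adjusted p of 0.00337. Eif3i had 485 and 444 CPM with TL1A and 358 and 390.3 CPM in medium, a log2 fold change of 0.31 (SE 0.08) with an edgeR adjusted p of 0.0163. Neither gene overlapped between conditions, but the Eif3i call was lost without TL1A replicate 1, at an edgeR adjusted p of 0.116. With the replicate number as a block Eif3i had an edgeR adjusted p of 0.053. Eif3d, a subunit that can itself bind the cap of some mRNAs, had 491 and 439 CPM with TL1A and 341 and 350.3 CPM in medium. It rose without overlap, with a log2 fold change of 0.43 (SE 0.08) and an edgeR adjusted p of 0.00371.

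The subunits that did not pass were Eif3e, Eif3f, Eif3h, Eif3k, Eif3l and Eif3m, with log2 fold changes between -0.22 and 0.09. Eif3e and Eif3h lay below medium in value, at 327 and 308 CPM with TL1A against 318 and 363 CPM in medium for Eif3e, and 539 and 514 CPM with TL1A against 579 and 645 CPM in medium for Eif3h. Eif3h did not overlap and had an edgeR adjusted p of 0.0541; it was called lower without medium replicate 1 (0.0087) and by limma voom (adjusted p of 0.0466). Eif3l was nearly level, with 837 and 806 CPM with TL1A and 831 and 871 CPM in medium, a log2 fold change of -0.05 (SE 0.06). As background, the subunits a, b, c, g and i also make up the eIF3 of budding yeast, whereas d, e, f, h, k, l and m do not. Eif3d rose with TMM scaling although it is among those absent from yeast. This comparison was made after the values were seen and was not tested. The transcript shares that occur in no other gene were 78.0% for Eif3e, 73.8% for Eif3h and 62.7% for Eif3m, and 100% for Eif3f and Eif3l.

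**Figure D4:**
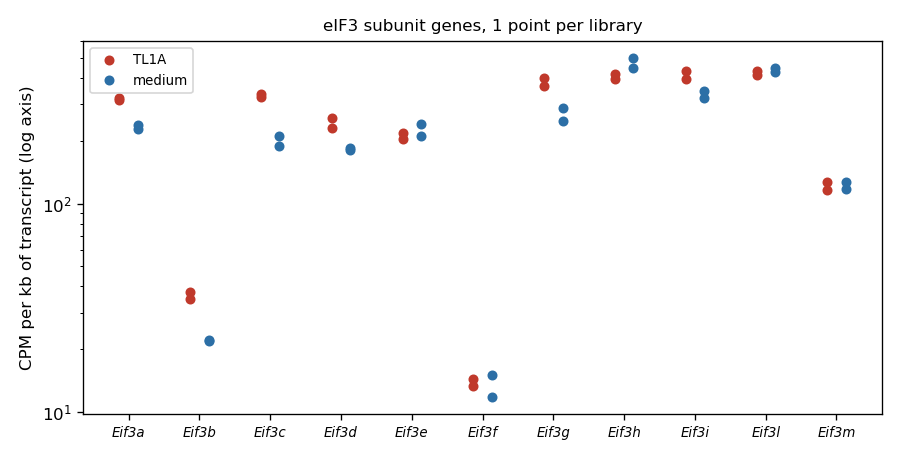
Level per transcript length (CPM per kilobase, log axis) of 11 eIF3 subunits counted from 1 transcript row, 1 point per library, with TL1A left of medium. With this TMM-scaled level, subunits a, b, c, d, g and i lie higher with TL1A, and Eif3b and Eif3f are far below the other subunits in both conditions.

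Per kilobase of transcript, the eIF3 subunits were not counted at equal levels. Mean values were highest for Eif3l (423 CPM per kilobase with TL1A and 438 in medium), Eif3i (414 with TL1A and 333 in medium) and Eif3h (407 with TL1A and 473 in medium). Eif3l and Eif3h were above Eif3i in medium, and with TL1A the 3 genes were close. Eif3f was counted at 13.9 CPM per kilobase with TL1A and 13.4 in medium, and Eif3b was the next lowest in both conditions. Such levels also move with how much of a transcript can be assigned to one gene.

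The cap-binding complex and its helicases gave calls in both directions. Of 8 tested genes, Eif4e and Eif4g2 rose (25%) and Eif4b and Eif4a2 fell (25%). Both shares were near those of all tested genes, 20.6% and 21.7%. With assigned reads alone 1 of the 8 was higher and 3 were lower, Eif4e losing its call and Eif4e2 being called lower. Over all tested genes that scaling gave 13.3% higher and 35.3% lower. Eif4e, the cap-binding protein, had 189.8 and 184 CPM with TL1A and 139 and 143 CPM in medium. The libraries were tightly grouped, and the log2 fold change was 0.41 (SE 0.08) with an edgeR adjusted p of 0.00484. Eif4g2 encodes an eIF4G relative that lacks the eIF4E-binding site and serves cap-independent initiation. It had 124 and 118 CPM with TL1A and 76.9 and 80.1 CPM in medium, a log2 fold change of 0.62 (SE 0.09) with an edgeR adjusted p of 0.00155. Both genes were higher in each TL1A library than in each medium library. For Eif4g2 all reads came from 1 of its 2 rows, 56.8% of whose 50-base stretches occur in no other row or gene.

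Eif4b, which stimulates the helicase eIF4A and is a target of S6 kinases, fell. It had 489.8 and 508 CPM with TL1A and 665 and 718 CPM in medium. The gap was several times the spread within a condition, with a log2 fold change of -0.47 (SE 0.07) and an edgeR adjusted p of 0.00137. Eif4a2, 1 of the 2 cytoplasmic eIF4A helicases, had 115 and 113 CPM with TL1A and 155 and 136 CPM in medium. It fell by 0.35 on the log2 scale (SE 0.10), with an edgeR adjusted p of 0.0222. The Eif4a2 call ended with any of 3 libraries left out: medium replicate 1 (edgeR adjusted p of 0.085), TL1A replicate 1 (0.0807) and TL1A replicate 2 (0.106). Its reads came from 1 of 4 rows, with 28.3% of stretches of its own. Eif4h, a helper of eIF4A related to Eif4b, had 358 and 351 CPM with TL1A and 317 and 312 CPM in medium and did not pass, with an edgeR adjusted p of 0.0717.

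The other cap-binding relatives did not pass. Eif4e2, a cap-binding protein linked to repression, had 78.7 and 78.8 CPM with TL1A and 81.5 and 91.7 CPM in medium, a log2 fold change of -0.14. Its 2 tested transcript rows had log2 fold changes of 0.82 (SE 0.36) and -0.17. A test for unequal change of rows within a gene called 12 of 268 genes with several tested rows (4.48%). Of the members, Eif4e2 and Eif2b3 entered that test and 0 of 2 were called, with edgeR adjusted p of 0.0944 and 0.171, though both had an unadjusted p under 0.05. Eif4e3 had 24.0 and 22.9 CPM with TL1A and 19.8 and 18.1 CPM in medium, did not overlap, and had an edgeR adjusted p of 0.149. Eif4g3, an eIF4G scaffold, was barely counted, at 0.651 and 0.948 CPM with TL1A and 1.04 and 0.674 CPM in medium. Eif4a3, the helicase of the exon junction complex rather than of eIF4F, had 206 and 198 CPM with TL1A and 181 and 189 CPM in medium, a log2 fold change of 0.13 that did not pass.

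The 4E-binding proteins hold eIF4E away from eIF4G until TOR complex 1 phosphorylates them, and their genes gave 1 call in each direction. Eif4ebp1 had 21 and 48 reads with TL1A and 7 and 5 reads in medium, or 1.95 and 4.14 CPM with TL1A and 0.557 and 0.374 CPM in medium. It was low in every library and higher in both TL1A libraries. The log2 fold change was 2.69 (SE 0.58), or 6.47-fold, with an edgeR adjusted p of 0.00832. Without TL1A replicate 2 the Eif4ebp1 value was 2.06 and the call was lost, at an edgeR adjusted p of 0.102. Eif4ebp2 had 25.2 and 20.5 CPM with TL1A and 29.5 and 38.2 CPM in medium. It fell by 0.57 on the log2 scale (SE 0.18), with an edgeR adjusted p of 0.0418. The Eif4ebp2 call was lost without medium replicate 2 (edgeR adjusted p of 0.215) or TL1A replicate 2 (0.186), with DESeq2 (adjusted p of 0.0581), and with the replicate number as a block (edgeR adjusted p of 0.0767). Eif4ebp3 had 29.7 and 27.4 CPM with TL1A and 31.9 and 27.6 CPM in medium, which nearly coincided, with a log2 fold change of -0.06 (SE 0.15). Per kilobase of transcript, Eif4ebp1 was the lowest of the 3 in both conditions, at 1.53 CPM per kilobase with TL1A and 0.233 in medium.

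eIF5A eases elongation and termination at difficult peptide bonds and carries the amino acid hypusine. Its main gene Eif5a was not tested, having 1 and 5 reads with TL1A and 1 and 2 reads in medium over 9 transcript rows, none with more than 14.3% of stretches of its own. Its paralog Eif5a2 had 41 and 46 reads with TL1A and 107 and 99 reads in medium, or 3.81 and 3.97 CPM with TL1A and 8.52 and 7.41 CPM in medium. Eif5a2 was low in all libraries and lower in both TL1A libraries, at a fold of 0.489. Its log2 fold change was -1.03 (SE 0.25) with an edgeR adjusted p of 0.0141. The Eif5a2 call was lost without medium replicate 1 (edgeR adjusted p of 0.0626) or TL1A replicate 1 (0.0501), and with DESeq2 (adjusted p of 0.0665).

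Of the 9 genes left untested, Eif3j1, Eif3j2, Eif4a3l1, Eif4e1b and Eif4g1 were listed at 0 reads in every library, and Eif2b4, Eif4a1, Eif4enif1 and Eif5a had 1 to 9 reads in all. The upper limit left by 0 counts (3 counts, counting error only) was 0.279 and 0.259 CPM with TL1A and 0.239 and 0.225 CPM in medium. Several of these genes serve every cell, such as the helicase Eif4a1 and the scaffold Eif4g1. The 2 Eif4a1 rows share all of their sequence with each other, and 65.3% of it with other genes. Eif3j2 shares 90.8% of its 50-base stretches with Eif3j1. Eif4g1 was at 0 although its single row has 100% of its stretches to itself. Because a read that fits several rows is set aside by the counting, a count near 0 here does not show that a gene was silent. Restricted to the 27 members with 1 row and at least 90% of stretches of their own, 26 were tested, 14 rose, 3 fell and 9 did not pass. In a fit of all genes with 1 row, 21.4% of those tested were higher and 22.4% lower.

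Genes around the initiation factors were counted from 7 lists of regulators and of later steps. Over the 62 tested genes of the 7 lists, 19 rose and 5 fell, and with assigned reads alone 12 were higher and 13 lower. Of all tested genes, 20.6% rose and 21.7% fell, and with assigned reads alone 13.3% were higher and 35.3% lower. Shares that rose and fell with TMM scaling were 50% and 0% for the stress response and 62.5% and 25% for eIF4F regulators. They were 25% and 8.33% for both TOR complex 1 and elongation, and 20% and 10% for termination. Mitochondrial factors had 16.7% and 0%, and the MYC family 0% and 0%.

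**Figure D5:**
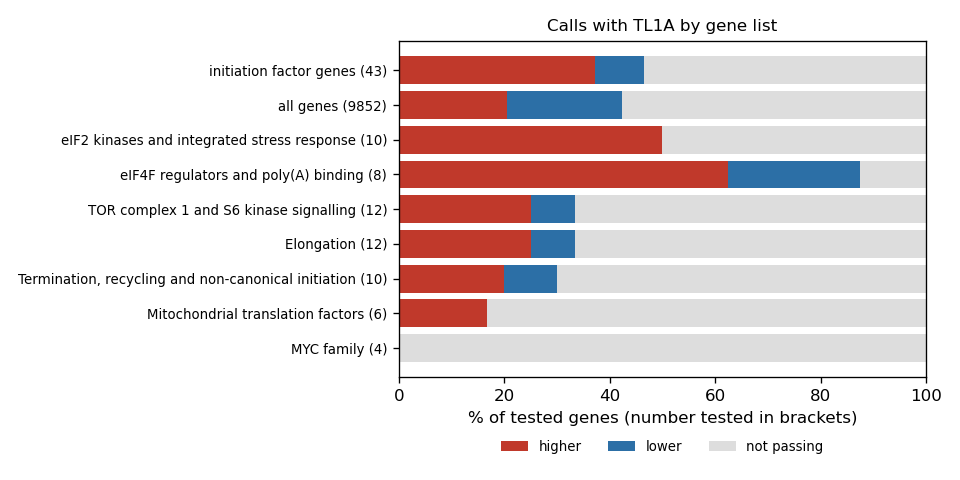
Share (%) of the tested genes of each list that rose, fell or did not pass in the edgeR test, as stacked bars from 0 to 100, for the initiation factor genes, 7 related lists and all tested genes. The initiation factor genes show 37.2% higher and 9.3% lower, against 20.6% higher and 21.7% lower over all tested genes, with TMM scaling.

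Among the eIF2 kinases and the integrated stress response that they start, 5 of 10 tested genes rose and 0 fell (3 higher and 1 lower with assigned reads alone). The response genes Asns, Trib3 and Chac1 moved most. Asns, the enzyme that makes asparagine, had 116 and 123 CPM with TL1A and 40.6 and 52.5 CPM in medium, 2.56-fold, with an edgeR adjusted p of 0.000221. Trib3, a pseudokinase, had 63.6 and 51.2 CPM with TL1A and 25.6 and 20.1 CPM in medium, 2.51-fold, with an edgeR adjusted p of 0.00079. Chac1, which degrades glutathione, had 77 and 123 reads with TL1A and 10 and 4 reads in medium, a log2 fold change of 4.01 (SE 0.47) with an edgeR adjusted p of 0.000439. Eif2ak3, the kinase of the endoplasmic reticulum stress response, rose 1.58-fold, with 32.8 and 24.9 CPM with TL1A and 15.1 and 21.3 CPM in medium and an edgeR adjusted p of 0.0452. That call was lost without medium replicate 1 (0.171) or TL1A replicate 1 (0.193). Ppp1r15b, which directs eIF2 dephosphorylation, rose 1.32-fold with an edgeR adjusted p of 0.032, lost without medium replicate 2 (0.093) or TL1A replicate 2 (0.192). The other 5 tested genes did not pass, namely Eif2ak1, Eif2ak2, Ddit3, Ppp1r15a and Sesn2. Their log2 fold changes were 0.15, -0.39, 0.43, 0.10 and -0.12, in that order. Atf4, the factor that drives such genes, had 9 and 6 reads with TL1A and 5 and 4 reads in medium and was not tested. Because the counting sets aside reads that fit several rows, so low a count does not show that Atf4 was barely expressed.

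Of the eIF4F regulators and poly(A)-binding genes, 5 of 8 rose and 2 fell (3 and 2 with assigned reads alone). Pabpc1, which binds the poly(A) tail and eIF4G, had 218 and 226 CPM with TL1A and 144 and 153 CPM in medium, 1.49-fold, with an edgeR adjusted p of 0.000977. Paip2b, an inhibitor of poly(A)-binding protein, had 18.9 and 14.9 CPM with TL1A and 47.4 and 47.2 CPM in medium, a fold of 0.357 with an edgeR adjusted p of 0.000287. The binding protein and its inhibitor thus moved in opposite directions. Larp1, which binds mRNAs with an oligopyrimidine start, rose 1.53-fold, and Dhx29, a helicase for structured leaders, rose 1.94-fold, with edgeR adjusted p of 0.00117 and 0.00152.

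Of the TOR complex 1 and S6 kinase genes, 3 of 12 rose and 1 fell (2 higher and 4 lower with assigned reads alone). Rptor, the subunit of TOR complex 1 that recruits its substrates, 4E-binding proteins among them, had 424 and 414 CPM with TL1A and 64.5 and 66.8 CPM in medium. The 6.38-fold rise was far above the spread between libraries, with a log2 fold change of 2.67 (SE 0.08) and an edgeR adjusted p of 4.98e-07. Mtor, the kinase itself, had 97.3 and 98.5 CPM with TL1A and 65.3 and 67.6 CPM in medium, 1.47-fold, with an edgeR adjusted p of 0.00312. Lamtor4, part of the lysosomal anchor of the complex, had 40.0 and 39.1 CPM with TL1A and 85.9 and 95.2 CPM in medium, a fold of 0.437 with an edgeR adjusted p of 0.000148. Rps6ka3, an S6 kinase of the RSK family, rose with a log2 fold change of 0.25 (SE 0.09) and an edgeR adjusted p of 0.0467. The edgeR adjusted p of Rps6ka3 was 0.157 with medium replicate 1 left out, 0.244 with TL1A replicate 1 left out and 0.0773 with TL1A replicate 2 left out.

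Elongation gave 3 higher and 1 lower of 12, and termination, recycling and non-canonical initiation 2 higher and 1 lower of 10. With assigned reads alone these were 3 and 2 for elongation, and 1 and 3 for termination. Dph1 and Dph5, which build the diphthamide residue of elongation factor 2, rose 1.99- and 1.46-fold, with edgeR adjusted p of 0.000724 and 0.00399. Eef2, the gene of that factor, fell to 2505 and 2311 CPM with TL1A, against 2784 and 3140.4 CPM in medium, with an edgeR adjusted p of 0.0165. Without TL1A replicate 2 the Eef2 call was lost at 0.13, and with the replicate number as a block at 0.0722. Eef1e1, whose protein sits in the tRNA synthetase complex, rose 2.07-fold with an edgeR adjusted p of 0.000235. The other 8 tested elongation genes did not pass. Among them were the elongation factor genes Eef1a1, Eef1b2 and Eef1g, with log2 fold changes of 0.03, 0.02 and 0.18. Denr, which helps ribosomes restart, had 190.0 and 207 CPM with TL1A and 123 and 129 CPM in medium, 1.57-fold, with an edgeR adjusted p of 0.000795. Abce1, the ribosome recycling factor, rose 1.32-fold with an edgeR adjusted p of 0.00828. Dap had 68.7 and 81.8 CPM with TL1A and 172 and 126 CPM in medium, a fold of 0.506 with an edgeR adjusted p of 0.0023. The release factor Etf1 did not pass.

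Of 6 tested mitochondrial translation factors 1 rose, Gfm1, with an edgeR adjusted p of 0.0466. That p was 0.143 with medium replicate 2 left out, 0.0796 with TL1A replicate 1 left out, 0.176 with TL1A replicate 2 left out, and the call was also lost with assigned reads alone. The MYC family, known to drive genes of protein synthesis, had 4 tested genes, Mycn, Mxd1, Mxd4 and Mnt, which did not pass. With assigned reads alone 1 of them was called lower. Myc itself was listed at 0 in every library and was not tested. As with the untested members, a count of 0 does not show that Myc was silent.

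Promoter letters were read as a further description of the members. RefSeq windows of assembly GRCm38.p6, from 250 bases before the annotated start, were at hand for 52 starts of 40 members. Of the 16 genes that rose, 11 had a window, and Eif6, Eif1a, Eif3i, Eif4ebp1 and Eif4g2 had none. The E-box CACGTG, the letters that MYC family proteins bind, read on both strands, was found in 11 of the 52 windows (21.2%), of 9 genes. The share was 8.46% of the windows of all tested genes and 6.02% of all windows. By call it was in 1 of 12 windows of genes that rose, 1 of 4 of genes that fell and 4 of 21 of genes that were tested without passing; the others belong to untested genes. The called genes with an E-box were Eif4e, at the second of its 2 annotated starts, and Eif5a2, each with 2 copies and with opposite calls. Their windows are shown for this reason, with the E-boxes in capitals, at chr3:138527018-138527234 on the plus strand for Eif4e and chr3:28781110-28781190 on the plus strand for Eif5a2.
Eif4e: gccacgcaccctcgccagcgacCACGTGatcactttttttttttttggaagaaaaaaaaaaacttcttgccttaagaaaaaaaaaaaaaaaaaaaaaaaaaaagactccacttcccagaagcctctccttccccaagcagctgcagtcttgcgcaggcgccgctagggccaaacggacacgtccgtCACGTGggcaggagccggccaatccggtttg
Eif5a2: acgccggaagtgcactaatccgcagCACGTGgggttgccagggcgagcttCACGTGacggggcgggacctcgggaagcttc

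The kappa B consensus, read on both strands, was found in 0 of 52 member windows, against 4.79% of the windows of all tested genes. This says only that these letters are not in these windows. mRNAs whose translation follows TOR complex 1 carry an oligopyrimidine stretch at their very start. The search here was looser. It took a C followed by at least 4 pyrimidines, beginning within 5 bases of the annotated start on the gene's own strand. A match therefore does not mark such an mRNA. This looser stretch was found in 12 of 52 member windows (23.1%), against 19.9% of those of all tested genes, so the share was near the background. By call it was in 3 of 12 windows of genes that rose, 0 of 4 of genes that fell and 5 of 21 of those that did not pass. The start regions of the 3 genes that rose are set beside those of Eif3f and Eif3l, which did not pass and carry longer stretches. Each runs from 5 bases before the annotated start, all on the plus strand of GRCm38.p6, with each stretch in capitals from its first C to the end of the pyrimidine run.
Eif1ad: cgatggCTTTTgtttctcca
Eif2b5: tCTCTCCCTgcaactacacc
Eif3b: gcggtgaCTTCTgggagtcg
Eif3f: gCTCTCTCTCTTTCTCggca
Eif3l: CTTCTTCCgCTCTCTCCCac
They lie at chr19:5366808-5366827, chr16:20498812-20498831, chr5:140419300-140419319, chr7:108934410-108934429 and chr15:79075218-79075237, in the order of the lines. A match is a description of the letters and not of binding or of translation, which were not measured here.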

How the data were processed

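Per the labels, a SMARTer Ultra Low Input kit gave the cDNA for Illumina sequencing. Per the submitters' processing notes, CASAVA, STAR and HTSeq were used with genome build mm9; the notes state no versions, annotation or strand setting. The authors deposited raw read counts, whole numbers per RefSeq transcript row, with 5 HTSeq summary rows (69.9% to 71.3% of each column), which were left out. Reads that fit several rows are ambiguous and made up 33.7% to 34% of the sum of assigned and ambiguous reads.

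Of 33535 rows, 33154 matched a mouse symbol of the RefSeq table of GRCm38.p6, used for names only. The 381 others (0.851% to 0.9% of reads) kept their accession. Rows were summed per gene, since the rows were transcripts and not genes. Of the members 39 had 1 row and 13 had several. Counts were tested with edgeR 4.0.16 in R 4.3.3 (TMM factors 0.908 and 0.921 with TL1A and 1.09 and 1.09 in medium, filterByExpr with a minimum count of 10, glmQLFit, glmQLFTest, condition as the only term, two-sided, Benjamini-Hochberg adjusted p under 0.05 over 9852 genes). CPM used TMM-scaled library sizes, and the SE is the size of the log2 fold change over the square root of F. Unequal change of rows was tested with diffSpliceDGE. For a single gene, exact permutation of 2 against 2 libraries has a smallest p of 0.333. Shared sequence was measured on 50-base stretches of GENCODE M21 transcripts, which is not the annotation that was counted.

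On simulated counts for this comparison (9852 genes, 200 changed), the test recovered 16.4% of changes of 0.5, 82.1% of 1 and 93.9% of 2 on the log2 scale, with 5 false among 133 calls. The simulation gave every gene the same dispersion and had no shift in composition between conditions. In the data 4168 genes were called, so these rates need not hold there. edgeR's common biological coefficient of variation came to 0.12, and libraries of a condition were no repeat deposits (chi-square per degree of freedom 7.98 with TL1A and 12.3 in medium). The named members were the 15 with the smallest p among those called, called members of at least 2-fold, and families of paralogs; other called members were added, and up to 4 genes per related list by p. Members and lists were chosen with earlier results of these data known. Alternatives were other scalings (DESeq2 1.42.0 size factors, upper quartile), no filter, DESeq2, limma 3.58.1 voom, a replicate block, each library left out, rows in place of genes, and single-row genes, with scaling by assigned reads alone added after seeing the data. Some marker genes are not reported here.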

Additional observations from a re-analysis of the deposited data

How the results depend on the processing

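Of the 20 called members, 11 kept their call under every alternative run (Eif6, Eif2s1, Eif2s2, Eif1a, Eif1ad, Eif3a, Eif3b, Eif3c, Eif3g, Eif4g2 and Eif4b), and 9 lost it under at least 1. Of the 23 that did not pass, 11 gained a call under at least 1. Without the filter on low counts Eif1ax had an edgeR adjusted p of 0.0235. Deviations of same-numbered libraries correlated at -0.105 over all tested genes and -0.532 over genes of at least 50 CPM. Each condition gives only 1 such difference per gene, so whether the shared replicate numbers mark pairs cannot be read from these values. With the replicate block, 1736 genes were called higher and 1806 lower, with 15 members higher and 3 lower, and 13 related genes higher and 3 lower. With crossed pairs as the block, chosen after seeing the data, 2295 were higher and 2439 lower, with 19 members higher and 5 lower. DESeq2 called 2 members lower. Leaving out 1 library gave 1596 to 1956 genes higher and 1597 to 1822 lower, 13 to 16 members higher and 2 to 3 lower, 14 to 17 related genes higher and 3 to 8 lower, and 0 to 0 members with unequal rows. Scaling by assigned reads without composition factors, also added after seeing the data, changed most: 1310 genes were higher and 3475 lower, 11 members higher and 12 lower, and 12 related genes higher and 13 lower. The higher share of calls was then 27.4% against 48.6% in the reported test for all genes, and 47.8% against 80% for members. It moved the median log2 fold change to -0.29 for all genes and -0.08 for members. Eif2b5, Eif3d, Eif3i, Eif4e and Eif5b lost their calls under it. Log2 fold changes that turned sign belonged to genes that did not pass, and Rps6ka3. With assigned reads only they were -0.044 for Eif1, -0.0086 for Eif2b1, -0.22 for Eif2b2, -0.076 for Eif2b3, -0.19 for Eif2s3x, -0.21 for Eif3f, -0.17 for Eif3k, -0.13 for Eif4a3, -0.083 for Eif4h and -0.0039 for Rps6ka3. Eif3m was 0.018 with DESeq2 and with its size factors, and upper-quartile scaling gave -0.021 for Eif2b2 and -0.0089 for Eif3f. With each library left out, the ranges that crossed 0 were -0.30 to 0.89 for Eif1, -0.14 to 0.052 for Eif1b, -0.037 to 0.0046 for Eif2a, -0.024 to 0.12 for Eif2b2, -0.053 to 0.19 for Eif2s3x, -0.057 to 0.020 for Eif2s3y, -0.20 to 0.023 for Eif3e, -0.12 to 0.27 for Eif3f, -0.092 to 0.010 for Eif3l, -0.075 to 0.085 for Eif3m, -0.13 to 0.042 for Eif4ebp3 and -0.37 to 0.24 for Eif4g3. The cause was not tested. Where a library is left out, the lone library of its condition is assumed to vary like the others.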

Other observations

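Eif1 and Eif1ax, the members whose libraries differed most within a condition among those of at least 50 CPM, shared their pattern with other genes. Of 3720 genes with a mean of at least 50 CPM, 33 had TL1A replicate 2 and medium replicate 1 both at least 1.5-fold above the other library of their condition. The 3 other pairings of libraries gave 0 such genes. Ppp1r15a, which directs eIF2 dephosphorylation after stress, was among the 33, with 76.3 and 126.7 CPM with TL1A and 129.3 and 60.8 CPM in medium. So was Nfkbia, an inhibitor of NF-κB, with 1165 and 1748 CPM with TL1A and 390.1 and 184 CPM in medium, and Uqcrc1, a subunit of respiratory complex III, with 278 and 507 CPM with TL1A and 587 and 232 CPM in medium. These 3 genes were chosen after their values were seen. The pattern was not tested, and titles do not say what the replicate numbers stand for.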
